A study of Arabidopsis thaliana with 9 samples.

Results

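The 10 genes described here are wall-associated kinases of Arabidopsis thaliana, WAK1 to WAK5, and the related WAK-like genes WAKL1, WAKL2, WAKL4, WAKL6 and WAKL10. They were taken by their locus codes from a table of read counts for 32833 loci, and all 10 were found there. Bulk RNA sequencing of whole seedlings gave 9 libraries in 3 groups of 3. All plants were wild type of ecotype Col-0, grown for 5 days on solid medium and then for 5 days in liquid medium. The groups were mock seedlings, labelled as having no treatment, seedlings given flg22 at 100 nM, and seedlings given 2'-aminoacetophenone (2-AA) at 200 uM. flg22 is a peptide of bacterial flagellin that plants sense through the receptor FLS2, and 2-AA is a small volatile molecule that bacteria such as Pseudomonas aeruginosa use in quorum sensing. How long treatment lasted, when seedlings were harvested and what solution mock plants got are not stated in the labels used here. The study addressed whether 2-AA acts on genes of cell-surface immune receptors, and the 3 comparisons are each treatment against mock and 2-AA against flg22.

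Wall-associated kinases span the plasma membrane, with an extracellular part that binds pectin in the cell wall and a serine/threonine kinase in the cytoplasm. They are known as sensors of the wall: they bind both long pectin and the short oligogalacturonides that are released when pectin is degraded by a pathogen or by wounding. WAK1 has been shown to act as a receptor of oligogalacturonides, and its transcript is known to be raised by salicylic acid and wounding. WAK2 is known for its part in cell expansion. WAKL genes encode kinases of similar build whose ligands are mostly unknown.

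All members lie on chromosome 1 (RefSeq annotation of the TAIR10.1 assembly, positions counted from 1), and each has a spliced mRNA of 3 exons or, for WAK4, 4. WAK1 (AT1G21250) spans 7439171 to 7442113, WAK2 (AT1G21270) 7444749 to 7448483, WAK3 (AT1G21240) 7434235 to 7436830, WAK4 (AT1G21210) 7423704 to 7427041 and WAK5 (AT1G21230) 7429895 to 7432477, all on the forward strand in 1 tandem run. A second forward run holds WAKL6 (AT1G16110, 5518219 to 5520929), WAKL1 (AT1G16120, 5522602 to 5525452), WAKL2 (AT1G16130, 5525293 to 5528212) and WAKL4 (AT1G16150, 5532298 to 5535060). WAKL10 (AT1G79680, 29979973 to 29982819, reverse strand) lies apart from both. The coding sequences of WAK1 to WAK5 were 76.3 to 83.5% identical over the 10 pairs. Those of the 5 WAKL genes were 50.4 to 85.0% identical, with WAKL2 and WAKL4 the closest pair, and identity between the 2 subfamilies was 46.1 to 53.4%.

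Close copies can exchange reads, so the share of 50-base windows of each mRNA that also occurs elsewhere in the genome or in another member was counted. It was 12.8% for WAK3, 10.3% for WAKL1, 7.13% for WAK1, 4.11% for WAKL2, 3.68% for WAK2, 0.85% for WAK4 and 0.464% for WAK5. WAKL4, WAKL6 and WAKL10 had 0 such windows. The spans of WAKL1 and WAKL2 share 160 bases. Windows within these bases enter the shares of both genes, so for this pair the window share and the overlap are not separate limits. The 3' end of WAK2 shares 994 bases with AT1G21280, a retrotransposon-like locus on the other strand that held 0 counts. Values of WAKL1, WAKL2, WAK1, WAK2 and WAK3 are therefore less certain than those of the other members, the more so as the labels do not say whether counting used strand.

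The 250 bases before the annotated start of 4 members are printed because these genes give the contrast in response described below and their windows overlap no other annotated gene. WAK1 and WAK2 are neighbours that were higher with flg22 than with 2-AA, WAKL4 was higher with 2-AA, and WAKL10 had no reads in mock. Sequences are from TAIR10.1, written 5′ to 3′ in the direction of transcription. Capitals mark TTGAC or its reverse complement GTCAA, the core of the W-box that WRKY transcription factors bind.
WAK1, chr1:7438921-7439170, forward strand: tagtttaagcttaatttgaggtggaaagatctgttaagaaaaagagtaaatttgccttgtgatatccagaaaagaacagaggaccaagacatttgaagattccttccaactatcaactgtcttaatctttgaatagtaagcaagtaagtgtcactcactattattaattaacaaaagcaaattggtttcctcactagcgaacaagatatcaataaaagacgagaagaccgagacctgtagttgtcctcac
WAK2, chr1:7444499-7444748, forward strand: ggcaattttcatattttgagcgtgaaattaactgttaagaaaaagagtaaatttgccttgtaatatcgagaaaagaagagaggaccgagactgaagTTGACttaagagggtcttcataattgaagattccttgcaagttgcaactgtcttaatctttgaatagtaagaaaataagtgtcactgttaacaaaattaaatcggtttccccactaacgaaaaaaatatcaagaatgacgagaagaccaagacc
WAKL4, chr1:5532048-5532297, forward strand: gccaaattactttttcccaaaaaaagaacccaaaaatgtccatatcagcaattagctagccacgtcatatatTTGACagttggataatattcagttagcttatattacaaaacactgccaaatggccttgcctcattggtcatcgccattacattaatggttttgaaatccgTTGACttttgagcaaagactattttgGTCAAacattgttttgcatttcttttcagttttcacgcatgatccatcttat
WAKL10, chr1:29982820-29983069, reverse strand: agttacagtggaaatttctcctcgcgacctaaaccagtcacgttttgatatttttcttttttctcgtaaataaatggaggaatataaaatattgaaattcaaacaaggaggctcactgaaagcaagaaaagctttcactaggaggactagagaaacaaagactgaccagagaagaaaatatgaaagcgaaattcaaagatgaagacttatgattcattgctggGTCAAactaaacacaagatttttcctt
The windows of WAK1 and WAK2 were 67.5% identical, the highest of the 45 pairs of members, and the next pair, WAK1 and WAK5, shared 140 of 280 aligned positions. The WAK2 window holds 1 W-box core and the WAK1 window 0. WAKL4 and WAKL1 held 3 each, WAK3 and WAKL6 held 2 each, and WAK4, WAK5 and WAKL10 held 1 each, so that 8 of the 10 members had at least 1 and WAK1 and WAKL2 had 0. Of 27443 windows of the same length before protein-coding genes, 44.9% held the core on either strand, and 3.38% held it 3 times or more. Other cores were searched on both strands as well. TGACG, bound by TGA factors, occurred once each in WAK2, WAK3 and WAKL4 (18.6% of all windows) and in WAK3 overlaps a W-box core. AATATCT, the core of the evening element bound by clock factors, occurred once, in WAKL6 (2745 of the 27443 windows). CGCGT, bound by CAMTA factors, occurred on both strands at 1 place in WAKL2, as overlapping matches (6.87% of windows), and the G-box CACGTG (6.49%) and the GCC box GCCGCC (1.87%) occurred in 0 members. A match of letters is a description of the window only.

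Library totals ran from 26644996 to 33195007 counts, and levels are given as CPM, counts per 1000000 scaled between libraries by the TMM method. A gene with 0 counts in a library may still be present at up to 0.0912 to 0.114 CPM on this scale, the worth of 3 counts in that library. Among values from 1 to 40 counts, 67.7% were even, against 50.1% of values over 200, so many reads appear to have been counted as pairs of mates and counting intervals, which take each count as independent and carry no molecular identifiers, are too narrow. Mock replicate 3, flg22 replicate 2 and 2-AA replicate 2 stood apart by their share of chloroplast-encoded counts, at 0.0980%, 0.0743% and 0.241% against 0.0211 to 0.0281% in the other 6, and values without these 3 are given where they change a call of a member. All 8 root markers and 6 of 7 shoot markers had counts in every group. The other shoot marker, the stem cell gene CLV3, was at 0 in both treatments and had counts in 1 mock library. The summed root markers were at 77.7 to 90.3 CPM with flg22, 105 to 126 with 2-AA and 117 to 128 in mock. Of these 8 markers, 0 rose and 6 fell with flg22 (29.4% of all genes fell), and 0 rose and 1 fell with 2-AA (31.1% fell). In 2-AA against flg22, 4 were higher and 0 lower (7.86% and 7.89% of all genes). The summed shoot markers were at 14840.5 to 15946 CPM with flg22, 12573 to 14561 with 2-AA and 20431 to 20955 in mock. Both treated sums lay below mock, but the list did not move together. CAB2 fell from 4161 CPM in mock to 529 with flg22 and 301 with 2-AA, and CAB3 from 1672 to 531 and 283. RBCS1A, the largest part of the sum, was at -0.05 with flg22 (not called) and -0.23 with 2-AA. Of 6 shoot markers tested, SPCH rose in each treatment (0.54), while 2 fell with flg22 and 4 with 2-AA. Of 11 clock genes, 6 rose and 4 fell in each treatment, and 59.2% and 62.2% of all genes tested were called in the same comparisons. Log2 fold changes with flg22 and 2-AA were -5.19 and -6.21 for LHY, -4.81 and -5.60 for CCA1, and 4.46 and 4.72 for ELF4, larger in size than those of most members. The part of any of these in the values below was not tested, and in whole seedlings a change in the number of cells of a type and a change in RNA per cell cannot be told apart. Replicates are described as biological, with no word on whether each was its own culture or day. The p-values therefore cover the spread seen among these libraries, which may be technical in part.

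With flg22, 9 of the 10 members were higher than in mock and WAKL1 was not called. With 2-AA, 8 were higher, WAK5 was lower and WAKL1 was not called. In the direct comparison WAK1, WAK2, WAK4 and WAK5 were lower with 2-AA than with flg22, WAKL4 and WAKL6 were higher, and 4 members were not called. Calls are at an edgeR adjusted p under 0.05 over 21059 genes, all of which entered 1 fit. The share of all genes called was 59.2% for flg22 against mock (29.8% higher), 62.2% for 2-AA against mock (31.2% higher and 31.1% lower) and 15.8% for 2-AA against flg22 (7.86% higher and 7.89% lower). The median log2 fold change of the members was 2.43 with flg22 and 1.92 with 2-AA, against -0.00 for all genes in both. WAKL10 at its lower bound (3.33 and 4.27) still lies above these medians, so placing it there could not change them. All 10 members passed the filter on low counts, but WAK3, WAK5 and WAKL10 did so through the groups in which they are high. The medians include WAK3, WAK5 and WAKL10 as well.

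**Figure D1:**
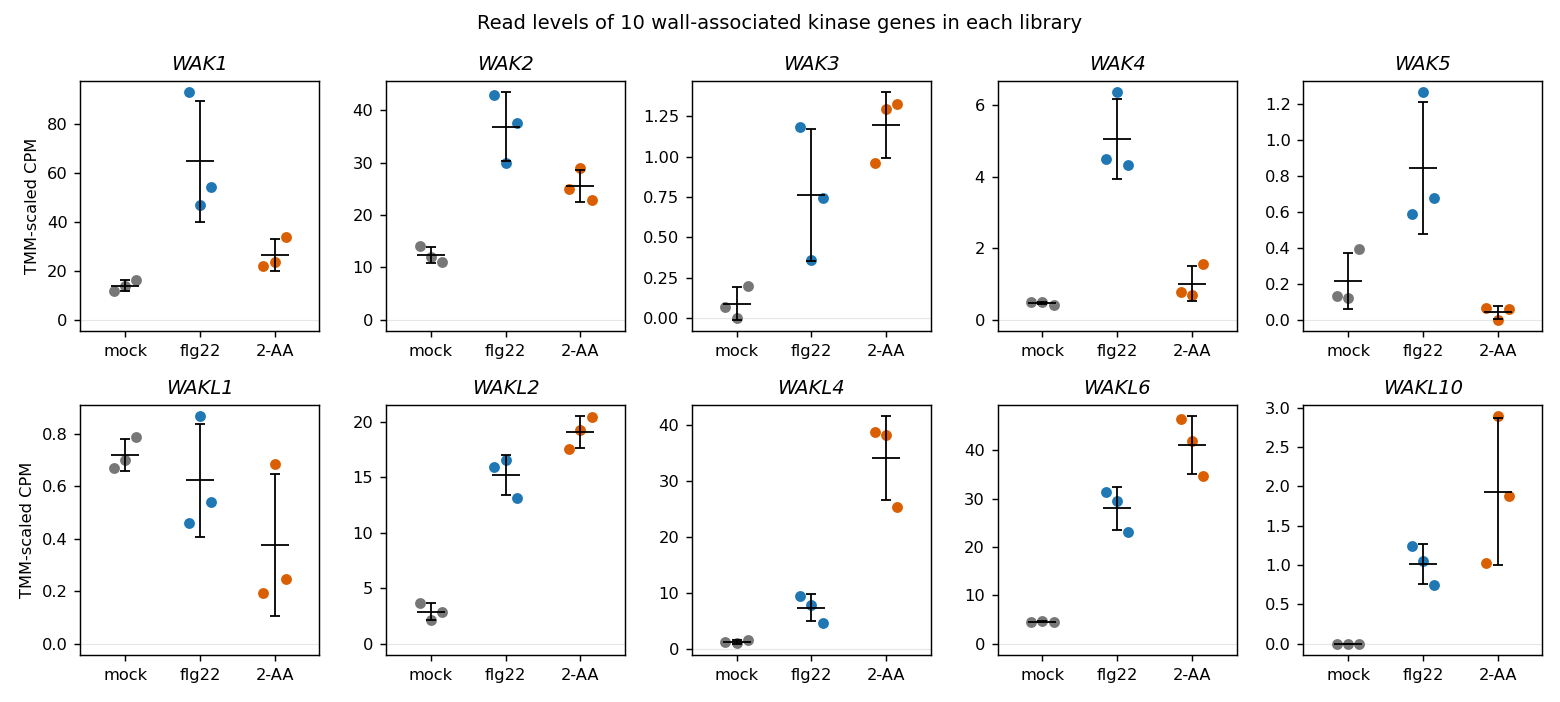
TMM-scaled CPM of each member in each library, on a linear axis of its own per gene; dots are libraries, the bar is the mean and the whiskers are the SD of 3 libraries. WAK1, WAK2, WAK4 and WAK5 stand highest with flg22, and WAKL2, WAKL4 and WAKL6 stand highest with 2-AA, where WAKL6 lies between 34.6 and 46.6 CPM. The means of WAK3 and WAKL10 are also highest with 2-AA, with libraries that overlap those of flg22. WAKL2, WAK3 and WAKL10 were not called between treatments.

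By mean CPM, WAK1 was the highest member in mock and with flg22, though its range in mock overlapped that of WAK2. The CPM of WAK1 were 11.7, 13.8 and 16.4 in mock, 93.1, 46.9 and 54.4 with flg22, and 21.9, 23.6 and 33.8 with 2-AA. The 3 groups did not overlap, and flg22 replicate 1 stood well above its group, whose mean was 64.8 ± 24.8 CPM (SD, n = 3). WAK1 rose with flg22 by a log2 fold change of 2.21 (standard error, SE, 0.24, adjusted p = 3.81e-06) and with 2-AA by 0.92 (SE 0.24, adjusted p = 0.00456). With 2-AA it was lower than with flg22, at -1.29 (SE 0.23, 95% interval -1.79 to -0.79, adjusted p = 0.00196). The rise with 2-AA did not pass a test against 1.5-fold (adjusted p = 0.0998).

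WAK2, the neighbour of WAK1, had 14.1, 11.98 and 11.0 CPM in mock, 43.0, 30.02 and 37.7 with flg22, and 25.0, 29.0 and 22.9 with 2-AA. All treated libraries lay above all mock libraries, and the lowest flg22 library lay just above the highest 2-AA library. The rise was 1.58 with flg22 (SE 0.14, adjusted p = 5.87e-07) and 1.05 with 2-AA (SE 0.14, adjusted p = 2.23e-05). The difference between treatments was small, at -0.53 (SE 0.13, adjusted p = 0.0174). It was not called without flg22 replicate 1 (-0.40, adjusted p = 0.0824), without 2-AA replicate 1 (-0.51, adjusted p = 0.0651) or without 2-AA replicate 3 (-0.46, adjusted p = 0.0642), and with the test against 1.5-fold its adjusted p was 1. Counts of WAK1 were 0.831 to 1.49 times those of WAK2 in mock libraries, 1.44 to 2.16 times with flg22 and 0.816 to 1.48 times with 2-AA, and the flg22 range overlapped the others.

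WAK4, which is known from antisense plants for a role in cell elongation and lateral roots, was low in mock and far higher with flg22. It had 0.502, 0.487 and 0.428 CPM in mock, 4.49, 6.37 and 4.33 with flg22, and 0.766, 0.686 and 1.57 with 2-AA. The flg22 libraries lay above all others, and 2-AA replicate 3 stood above the other 2-AA libraries. WAK4 rose by 3.41 with flg22 (SE 0.35, adjusted p = 2e-06) and was lower with 2-AA than with flg22 by a log2 fold change of -2.31 (SE 0.32, 95% interval -2.99 to -1.62, adjusted p = 0.000287). The rise with 2-AA over mock was 1.10 (SE 0.37, adjusted p = 0.0194). That call ended without 2-AA replicate 3 (0.62, adjusted p = 0.143) and without mock replicate 3 (1.05, adjusted p = 0.0514), with limma-voom (1.00, adjusted p = 0.0899) and against 1.5-fold (adjusted p = 0.116).

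WAK5 was the member for which the treatments stood on opposite sides of mock, at very low levels. Its counts were 4, 4 and 12 in mock, 18, 35 and 20 with flg22, and 2, 0 and 2 with 2-AA. The flg22 libraries lay above all mock libraries and the 2-AA libraries lay below them. WAK5 was higher with flg22 than with 2-AA, with a log2 fold change of 2-AA against flg22 of -4.13 (SE 0.78, adjusted p = 0.00298). That call held in each of the 19 alternative settings, with -3.25 (adjusted p = 0.0254) without the 3 libraries richest in chloroplast counts. WAK5 passed the filter on low counts only through its flg22 libraries, and the settings reuse these, so agreement among settings is no separate support. The 73 counts with flg22 and 4 with 2-AA give a ratio of 18.7, with an exact 95% interval from counting alone of 7.01 to 70.6. Against mock the calls were less firm. The rise with flg22 (1.94, SE 0.61, adjusted p = 0.0148) ended without mock replicate 1 (1.71), without mock replicate 2 (1.66) or without flg22 replicate 2 (1.55) and against 1.5-fold (adjusted p = 0.0568), and was 2.69 without mock replicate 3. The fall with 2-AA (-2.19, SE 0.90, adjusted p = 0.0494) ended on leaving out any 1 library other than mock replicates 1 and 2. It was -1.44 (adjusted p = 0.237) without mock replicate 3, -1.72 (adjusted p = 0.129) without 2-AA replicate 2 and -0.97 (adjusted p = 0.422) without the 3 libraries richest in chloroplast counts. With the replicate number as a block it was -2.15 (adjusted p = 0.0736).

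WAK3 had 2, 0 and 6 counts in mock, 36, 10 and 22 with flg22, and 30, 34 and 43 with 2-AA. All treated libraries lay above all mock libraries, while the treated groups overlapped. WAK3 rose by 3.09 with flg22 (SE 0.73, adjusted p = 0.00267) and by 3.72 with 2-AA (SE 0.71, adjusted p = 0.000503), but it passed the filter on low counts only through its treated libraries. Mock replicate 3 held most of the mock reads, and without it the values were 4.42 and 5.06; without mock replicate 2 they were 2.50 and 3.14, and without the 3 libraries richest in chloroplast counts 4.76 and 5.00. Between treatments WAK3 was not called (0.63, SE 0.54, 95% interval -0.54 to 1.81, adjusted p = 0.496). Since 12.8% of its windows occur elsewhere, its counts were set against those of WAK1, its closest coding relative: they came to 0 to 1.20% of the WAK1 counts in mock, 0.771 to 1.37% with flg22 and 3.92 to 5.48% with 2-AA. The 2-AA share lay above the others in all 3 libraries, while the flg22 share overlapped that of mock. The part of WAK1 reads in the WAK3 counts was not tested.

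**Figure D2:**
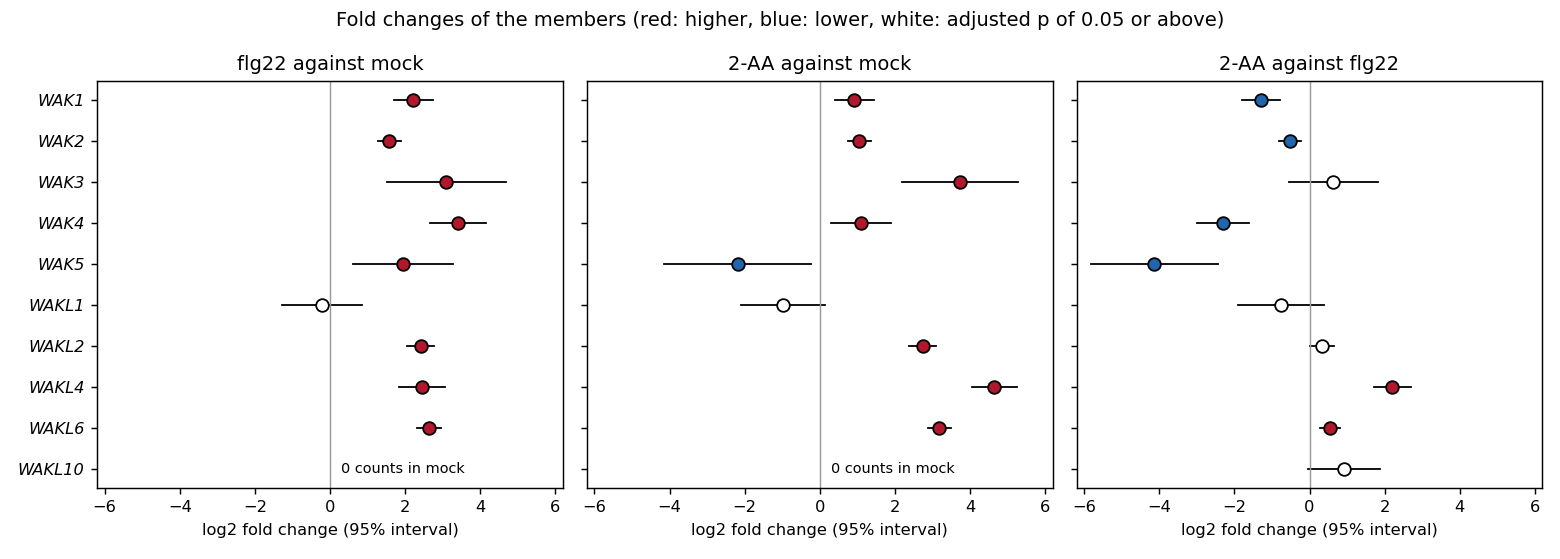
Log2 fold change of each member in each comparison, with its 95% interval from the edgeR fit; red is higher, blue is lower and white was not called, and WAKL10 has no value against mock because mock held 0 counts. In 2-AA against flg22, WAK1, WAK2, WAK4 and WAK5 are lower and WAKL4 and WAKL6 are higher, with WAKL4 at 2.20.

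WAKL4, a WAK-like kinase gene known in Arabidopsis for a role in root responses to minerals, showed the largest preference for 2-AA among the members. It had 1.27, 1.10 and 1.71 CPM in mock, 9.51, 7.99 and 4.77 with flg22, and 38.7, 38.2 and 25.4 with 2-AA. The 3 groups did not overlap, and in both treatments replicate 3 was the lowest library. The 2-AA mean, 34.1 ± 7.51 CPM (SD, n = 3), was 25.1 times the mock mean of 1.36 ± 0.317. WAKL4 rose by 2.45 with flg22 (SE 0.28, adjusted p = 6.06e-06) and by 4.65 with 2-AA (SE 0.27, adjusted p = 9.85e-09). It was higher with 2-AA than with flg22 by 2.20 (SE 0.23, 95% interval 1.71 to 2.69, adjusted p = 3.03e-05). Each of these calls held in all 19 alternative settings.

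WAKL6, at the head of the same run, had 4.42, 4.65 and 4.44 CPM in mock, 31.4, 29.5 and 23.0 with flg22, and 46.6, 41.9 and 34.6 with 2-AA. The groups did not overlap, and replicate 3 was again the lowest treated library. WAKL6 rose by 2.63 with flg22 (SE 0.14, adjusted p = 7.3e-09) and by 3.19 with 2-AA (SE 0.14, adjusted p = 1.09e-09). Its difference between treatments was 0.55 (SE 0.13, 95% interval 0.28 to 0.82, adjusted p = 0.00908). That call was lost without 2-AA replicate 1 (0.45, adjusted p = 0.0512), without the 3 libraries richest in chloroplast counts (0.58, adjusted p = 0.0515) and against 1.5-fold (adjusted p = 1). Counts of WAKL4 came to 0.235 to 0.385 times those of WAKL6 in mock, 0.207 to 0.303 times with flg22 and 0.735 to 0.910 times with 2-AA, where the ratio lay above that of every other library.

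WAKL2 had 3.65, 2.13 and 2.83 CPM in mock, 15.9, 16.6 and 13.1 with flg22, and 17.5, 19.3 and 20.4 with 2-AA. It rose by 2.41 with flg22 (SE 0.17, adjusted p = 6.97e-08) and by 2.74 with 2-AA (SE 0.17, adjusted p = 1.57e-08). The 2-AA libraries lay above the flg22 libraries, but the difference was not called (0.33, SE 0.15, 95% interval 0.00 to 0.65, adjusted p = 0.171). WAKL2 and WAKL4 have the most alike coding sequences of all members, and WAKL4 differed between treatments where WAKL2 was not called; the difference between these differences was not tested.

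WAKL1, which lies between WAKL6 and WAKL2, was the member that was not called in any comparison. It had 20, 23 and 24 counts in mock, 14, 24 and 16 with flg22, and 6, 18 and 8 with 2-AA. The flg22 libraries overlapped mock, and of the 2-AA libraries replicates 1 and 3 lay below mock while replicate 2 lay within it, with 0.191, 0.686 and 0.247 CPM against 0.669, 0.700 and 0.789 in mock. The log2 fold changes were -0.21 with flg22 (SE 0.49, 95% interval -1.27 to 0.85, adjusted p = 0.731) and -0.97 with 2-AA (SE 0.52, 95% interval -2.09 to 0.15, adjusted p = 0.12). Without 2-AA replicate 2, the highest of its group, the second was -1.69 and called (adjusted p = 0.0178), and without the 3 libraries richest in chloroplast counts it was -1.61 (adjusted p = 0.039). Its neighbours on both sides rose in the same libraries.

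WAKL10, whose kinase part was reported to have guanylyl cyclase activity in vitro, had 0 counts in all 3 mock libraries. It had 38, 29 and 22 counts with flg22 and 32, 76 and 61 with 2-AA, or 1.25, 1.05 and 0.744 CPM and 1.02, 2.90 and 1.88 CPM. Against the floor of 3 counts per library, at most 0.1004 CPM in mock, it was at least 10.09-fold higher with flg22 and at least 19.2-fold higher with 2-AA, a bound that takes each count as independent. Leaving out any 1 treated library, these bounds were at least 8.93-fold and 14.5-fold. The bounds were not tested. The edgeR fit called WAKL10 higher in both treatments (adjusted p = 4.64e-05 and 9.31e-06), but it passed the filter on low counts only through its treated libraries. The treated groups overlapped and their difference was not called (0.92, SE 0.44, 95% interval -0.04 to 1.88, adjusted p = 0.196).

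Groups of libraries stood apart for 9 of 10 members in flg22 against mock, for 9 in 2-AA against mock and for 7 in 2-AA against flg22. The same held for 65.5%, 67.9% and 32.6% of all genes. In the first comparison all 9 members stood above mock (32.7% of all genes did so, and 32.8% stood below). In the second 8 stood above and 1 below (33.7% and 34.1% of all genes), and in the third 3 stood above and 4 below (16.4% and 16.2%). A called rise of at least 4-fold was found for 7 members with flg22, 5 with 2-AA and 1, WAKL4, in 2-AA against flg22, against 3.02%, 3.52% and 0.394% of all genes. The 8 members that rose in both treatments compare with 25.6% of all genes. WAK3 and WAKL10 are among the members above mock, among the rises of at least 4-fold against mock and among these 8. WAK5 is among the 9 above mock with flg22 and the 4 below flg22 with 2-AA. WAK3, WAK5 and WAKL10 passed the filter on low counts through the groups in which they are high, so they add no support to these counts. Split by subfamily, all 5 WAK genes rose with flg22, and in 2-AA against flg22 4 of them were lower and WAK3 was not called (median -1.29). Of the 5 WAKL genes, 4 rose with flg22 and 4 with 2-AA, and in the direct comparison 2 were higher and 3 were not called (median 0.55). Of all genes, 29.8% rose with flg22 and 31.2% with 2-AA, and in the direct comparison 7.89% were lower and 7.86% higher. This split counts WAK3, WAK5 and WAKL10 too, and they add no support to it. The medians and counts describe genes that share tandem runs and are not independent, and the 2 comparisons against mock share their mock libraries.

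Summed over the 10 members, levels were 36.5, 35.0 and 38.2 CPM in mock, 201, 141 and 140.0 with flg22, and 153, 158 and 142 with 2-AA. The treated groups reached similar sums from a different make-up. WAK1 to WAK5 together gave 26.4, 26.4 and 28.4 CPM in mock, 142, 84.9 and 97.8 with flg22, and 48.6, 54.6 and 59.7 with 2-AA. WAKL1, WAKL2, WAKL4 and WAKL6 together gave 10.01, 8.58 and 9.77 CPM in mock, 57.3, 54.9 and 41.4 with flg22, and 103, 100.1 and 80.7 with 2-AA. As a share of member counts within a library, which does not depend on the scaling between libraries, the 4 genes of the WAKL run took 24.5 to 27.5% in mock, 28.5 to 39.0% with flg22 and 56.7 to 67.5% with 2-AA. The 2-AA libraries held a majority of WAKL reads, and all others held a majority of WAK reads.

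**Figure D3:**
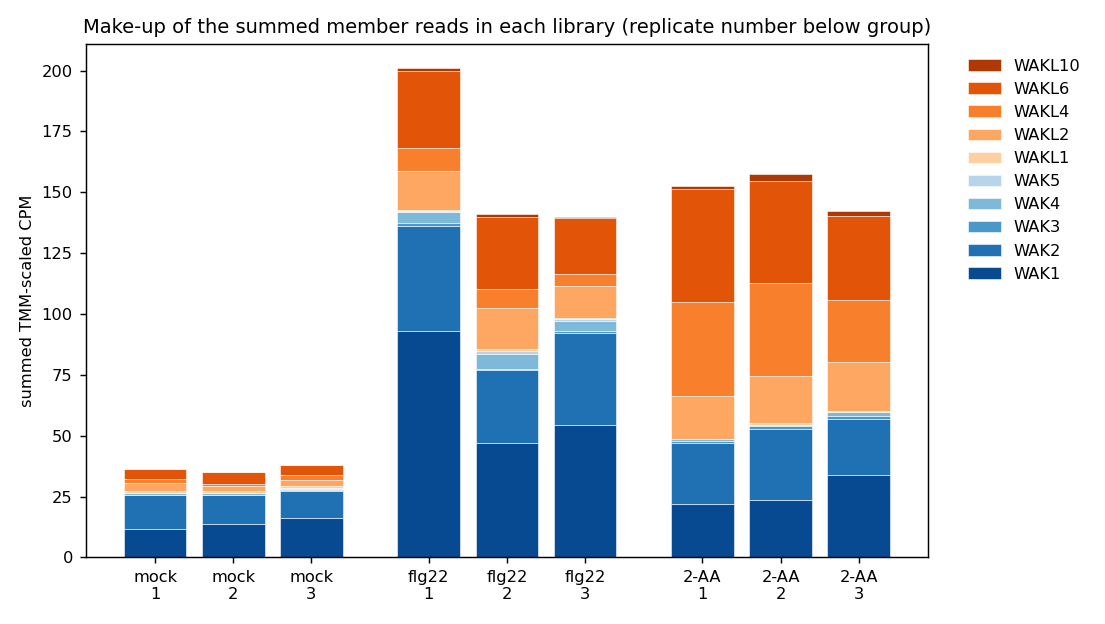
Stacked TMM-scaled CPM of the 10 members in each of the 9 libraries, with WAK genes in blue and WAKL genes in orange. The totals of flg22 and 2-AA libraries overlap, while WAK genes make up most of each mock and flg22 bar and WAKL genes most of each 2-AA bar.

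Levels of different genes were compared as CPM per kilobase of spliced mRNA. The mRNA length used was 2770 bases for WAK1 and 3585 for WAK2, whose CPM in mock overlapped before this scaling. In mock, WAK1 stood at 5.04 (SD 0.849), WAK2 at 3.44 (SD 0.437), WAKL6 at 1.77, WAKL2 at 1.04, WAKL4 at 0.526 and WAKL1 at 0.267, each with a range over libraries that did not overlap the next. Below them WAK4 at 0.158, WAK5 at 0.0896, WAK3 at 0.0364 and WAKL10 at 0 each overlapped their neighbour in the order. With flg22, WAK1 stood at 23.4 (SD 8.94), followed by WAKL6 at 11.0 and WAK2 at 10.3, whose ranges overlapped. WAKL2 at 5.52 was apart from both its neighbours, while WAKL4 at 2.87 and WAK4 at 1.69 overlapped, and the remaining 4, at 0.390 for WAKL10 down to 0.231 for WAKL1, overlapped from each to the next.

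With 2-AA the order on the same length-scaled levels began with WAKL6 at 16.1 (SD 2.36) and WAKL4 at 13.2 (SD 2.90), followed by WAK1 at 9.54, WAK2 at 7.14 and WAKL2 at 6.93. Each of these 5 overlapped the next, so their order is not settled beyond the spread. WAKL10 at 0.745, WAK3 at 0.493, WAK4 at 0.337 and WAKL1 at 0.139 followed, again overlapping from each to the next, and WAK5 at 0.0173 was lowest.

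**Figure D4:**
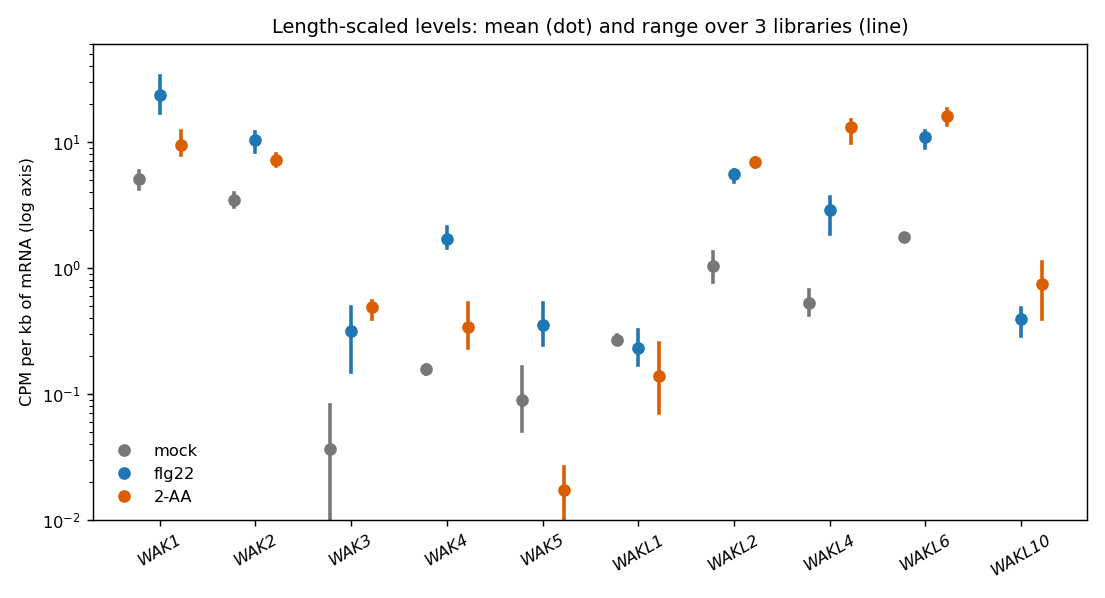
CPM per kilobase of mRNA on a log axis, with the mean as a dot and the range of 3 libraries as a line, cut at the lower edge of the axis for values of 0; WAKL10 has no mock value because its mock counts were 0. WAK1 leads on this scale in mock and with flg22, at 5.04 and 23.4, while its mock CPM before length scaling overlapped those of WAK2. With 2-AA the means of WAKL6 and WAKL4 are highest, at 16.1 and 13.2, and the range of WAKL4 overlaps that of WAK1.

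The genes most like each member over the 9 libraries were sought among genes of at least 5 CPM on average, by Pearson's r of log2 CPM. The libraries fall into 3 groups, so r mostly measures the pattern of group means and is given as a description. The 2 most alike genes of each member had r from 0.906 (WAKL1) to 0.9995 (WAKL6). For WAK1 the closest was AT3G56130, annotated as a biotin/lipoyl attachment domain protein (r = 0.985), and for WAK2 AT1G69550, annotated as a TIR-NBS-LRR disease resistance protein (r = 0.992). For WAK4 it was MIOX4, a myo-inositol oxygenase, which makes a precursor of wall sugars, (r = 0.991), for WAK3 the potassium permease gene KUP9 (r = 0.992) and for WAK5 the homeobox gene ATH1 (r = 0.956). For WAKL4 the closest were AT5G25930, annotated as a kinase with leucine-rich repeats (r = 0.998, log2 fold change against mock 1.45 with flg22 and 2.96 with 2-AA), and AT4G34380, annotated as a WD40 repeat protein (r = 0.998, 2.65 and 5.07). For WAKL6 it was AT5G44585, an uncharacterized protein gene (4.15 and 4.98), for WAKL2 AT1G09130, annotated in a Clp protease family (r = 0.996), for WAKL10 AT3G16230 (r = 0.994) and for WAKL1 the tubulin gene TUA3 (r = 0.917). The size of a change does not enter r. AT3G56130 was at 0.51 with flg22 and 0.23 with 2-AA, against 2.21 and 0.92 for WAK1. AT1G09130 was at 0.50 and 0.54, against 2.41 and 2.74 for WAKL2.

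Of 9 further WAKL genes and loci that RefSeq annotates as wall-associated kinases, 7 passed the filter on counts. With flg22 5 rose and 2 were not called (median 0.85), and with 2-AA 6 rose and 1 was not called (median 0.81). WAKL7 and WAKL5, which flank the WAKL run, went from 3.86 and 1.08 CPM in mock to 8.12 and 2.51 with flg22 and to 12.9 and 4.62 with 2-AA. WAKL7 was higher with 2-AA than with flg22 (0.66, SE 0.17, adjusted p = 0.0159), and WAKL5 was at 0.87 (SE 0.29, adjusted p = 0.0617). RFO1, which gives resistance to Fusarium and lies beside WAKL10, rose from 18.5 to 33.3 CPM with flg22 and to 40.8 with 2-AA, where WAKL10 went from 0 to 1.01 and 1.93 CPM. AT1G16260 rose by 0.97 (SE 0.10) and 0.81 (SE 0.10) with the 2 treatments. Loci beside the runs that are no kinases moved by less: AT1G21200, before WAK4, was at 0.15 (SE 0.10, adjusted p = 0.222) with flg22 and 0.27 (SE 0.10, adjusted p = 0.0299) with 2-AA, and AT1G16170, after WAKL5, was at -0.10 (SE 0.10, adjusted p = 0.437) and -0.37 (SE 0.10, adjusted p = 0.00746).

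Genes around the WAK proteins were taken from lists keyed by locus code. Their counts are to be read against all genes tested, of which 29.8% rose and 29.4% fell with flg22 and 31.2% rose and 31.1% fell with 2-AA, so that a list with members moving both ways does not stand apart by that. Of 8 tested genes of WAK partners and oligogalacturonide signalling, 4 rose, 1 fell and 3 were not called in each treatment. GRP3, a glycine-rich wall protein that binds WAK1, rose from 245 to 338 CPM with flg22 (0.46, SE 0.09, adjusted p = 0.000859) and to 326 with 2-AA (0.41, SE 0.09, adjusted p = 0.0019). KAPP, a phosphatase found in the WAK1 complex, rose with 2-AA (0.30, SE 0.08, adjusted p = 0.0059) and was at 0.12 with flg22 (adjusted p = 0.211). MPK3, a MAP kinase gene of the immune response, rose by 1.01 and 1.16 (SE 0.08 each), and MPK6 was at -0.03 and 0.10 and not called. PGIP2, an inhibitor of fungal polygalacturonases, rose by 0.59 and 0.71 (SE 0.14 each). Between treatments the difference was 0.18 for KAPP (SE 0.08, 95% interval 0.00 to 0.35, adjusted p = 0.175) and 0.15 for MPK3 (SE 0.08, 95% interval -0.03 to 0.33, adjusted p = 0.262).

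Of 4 other wall-sensing kinases tested, 2 rose and 1 fell with flg22, and 2 rose and 2 fell with 2-AA. THE1, a sensor of wall integrity, fell from 91.5 CPM in mock to 48.3 with flg22 (-0.92, SE 0.07, adjusted p = 1.58e-07) and to 41.9 with 2-AA (-1.13, SE 0.07, adjusted p = 1.96e-08). FER, the FERONIA kinase that binds pectin, rose by 0.24 and 0.29 (SE 0.07 each), and HERK1 rose by 0.27 (SE 0.09) and 0.52 (SE 0.09).

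Of 8 tested pectin methylesterases and inhibitors, 4 rose and 2 fell in each treatment. PME3, which demethylates pectin, rose from 160 to 382 CPM with flg22 (1.26, SE 0.08) and to 357 with 2-AA (1.16, SE 0.08). PME17, a pathogen-induced pectin methylesterase, rose from 14.8 to 87.2 CPM with flg22 (2.56, SE 0.29) and to 39.0 with 2-AA (1.40, SE 0.29). It was lower with 2-AA than with flg22 (-1.16, SE 0.27, adjusted p = 0.011), the direction of WAK1, WAK2, WAK4 and WAK5 and of 7.89% of all genes tested. PME2 fell by a log2 change of -1.65 (SE 0.20) and -1.02 (SE 0.19). Of 9 tested genes of pectin synthesis and breakdown, 3 rose and 4 fell with flg22, and 1 rose and 3 fell with 2-AA. GAE1, an epimerase that makes the galacturonic acid precursor of pectin, fell from 165 CPM to 90.8 and 85.0 (-0.86 and -0.95, SE 0.10 each), and QUA2, a pectin methyltransferase gene, rose by 0.41 and 0.61 (SE 0.07 each). PMR6, a pectate lyase-like gene that mildew needs, rose with flg22 (0.41, SE 0.07) and was lower with 2-AA than with flg22 (-0.36, SE 0.07, adjusted p = 0.00561).

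**Figure D5:**
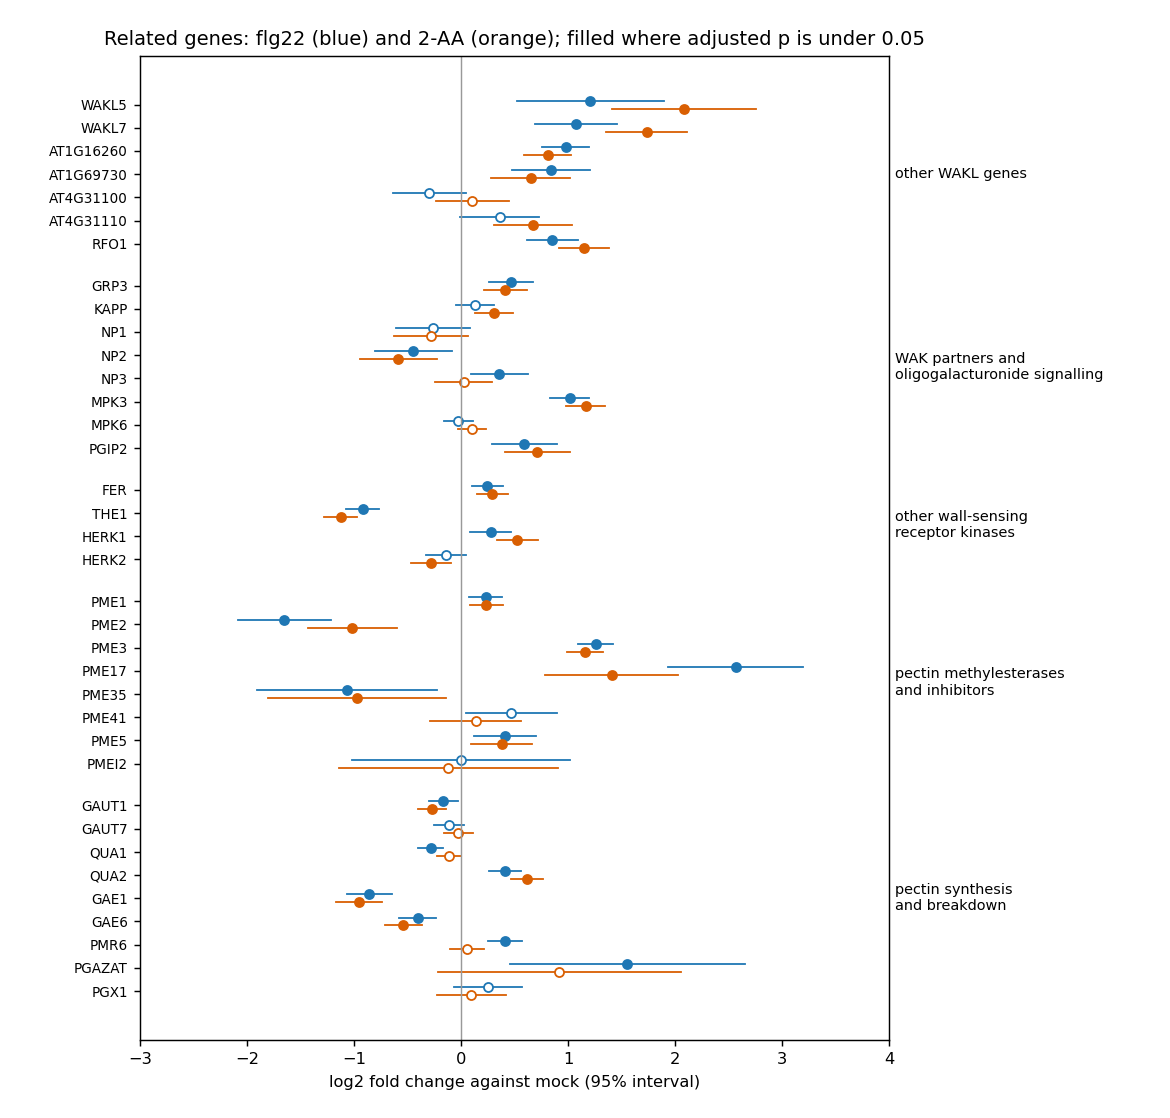
Log2 fold change against mock of the tested genes of 5 related lists, with 95% intervals; blue is flg22, orange is 2-AA, and filled dots were called. PME17, WAKL5 and WAKL7 show the largest rises among these genes, up to 2.56 for PME17 with flg22, and PME2 the largest fall.

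PR1, a marker gene of salicylic acid output, had 0.0669, 0.243 and 1.78 CPM in mock, 13.7, 5.35 and 11.5 with flg22, and 0.255, 0.0381 and 2.00 with 2-AA. It was lower with 2-AA than with flg22 (-3.67, SE 0.85, adjusted p = 0.0101), as were 7.89% of all genes tested. Against mock, PR1 rose with flg22 (3.88, SE 0.86) and was not called with 2-AA (0.20, SE 0.99, adjusted p = 0.872), where WAK1, WAK2 and WAK4 rose. A link between PR1 and the WAK genes was not tested. FRK1, a marker gene of flagellin perception, was at 2.46 CPM in mock, 143 with flg22 and 203 with 2-AA. It rose by 5.86 with flg22 (SE 0.35) and by 6.37 with 2-AA (SE 0.35). Between treatments FRK1 was not called (0.51, SE 0.26, 95% interval -0.05 to 1.06, adjusted p = 0.216).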

How the data were processed

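The deposited table gives unnormalized counts of reads by gene, 1 column for each of 9 libraries of whole seedlings. Per the submitters' processing notes, Trimmomatic 0.36, HISAT2 and edgeR were used with the TAIR10 build. Their roles and settings, the counting program, the annotation, the use of strand and the treatment of multiply mapped reads are not stated there or in the labels. The header holds doubled tabs, read as 1 separator, and no column was left unused. Library preparation started from total RNA (1 ug), per the labels' protocols.

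From these counts, genes passed filterByExpr in edgeR 4.0.16 under R 4.3.3 (minimum count 10, minimum total 15), which left 21059 genes. All 9 libraries entered 1 TMM-scaled quasi-likelihood fit (glmQLFit, glmQLFTest) with 6 residual degrees of freedom. Tests were two-sided, with Benjamini-Hochberg adjustment per comparison over all genes tested and calls under 0.05. Adjusted p-values come from this fit unless another is named. The SE is the log2 fold change divided by the square root of F. The fit was tested on simulated data: for flg22 against mock over 21059 genes, it called 155 of 200 genes changed 2-fold in the right direction and 7 of the others. That simulation changed far fewer genes than were called in the data (59.2%), drew its spread from the fitted trend and held no organelle-rich libraries. It therefore does not measure error rates in these data. No library was a copy of another: replicate pairs gave a chi-square per degree of freedom of 5.62 to 31.8, above the sampling noise, and all 9 were counted. Alternatives used RLE scaling, DESeq2 1.42.0, limma-voom (limma 3.58.1) and others given under the closing section.

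The members and lists were chosen with earlier results of these data known. Of 100 list entries, 79 were used. Another 20 were set aside because RefSeq names the locus otherwise, and 1 was not analysed here. All 10 members are named. Of each other list, up to 3 called genes with the smallest p per comparison were eligible, and KAPP, MPK6, WAKL5, LHY, CCA1 and the genes set beside a named one were added after their values were seen. The RefSeq annotation and genome are those of TAIR10.1.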

Additional observations from a re-analysis of the deposited data

How the results depend on the processing

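Of the 30 log2 fold changes of members (10 genes in 3 comparisons), 0 changed direction in any of 19 alternative settings, and 23 kept their side of the threshold in all of them. The exceptions were WAK1, WAK4, WAK5 and WAKL1 with 2-AA against mock, WAK5 with flg22 against mock, and WAK2 and WAKL6 in 2-AA against flg22. Tested against 1.5-fold, genes called fell to 4836 with flg22, 5586 with 2-AA and 473 between treatments, since this test asks for more than a change. Without the 3 organelle-rich libraries (mock replicate 3, flg22 replicate 2 and 2-AA replicate 2, those with the highest chloroplast share of their group) 2090 genes were called between treatments, and the cause was not tested. Leaving out each library in turn gave 11293 to 12505 genes called with flg22, 12060 to 13198 with 2-AA and 2204 (without 2-AA replicate 2) to 3392 between treatments. Members called higher ranged from 8 to 9, 7 to 8 and 1 to 2 in these comparisons, and members called lower between treatments from 3 to 4. The 1 member called lower with 2-AA against mock, WAK5, became 0 with limma-voom, with no filter on low counts, with only the 2 groups compared, with the organelle-rich libraries as a term and against 1.5-fold, and ranged from 0 to 1 on leaving out each library. With only the 2 groups compared, WAK5 did not enter the test. Without the organelle-rich libraries the 1 member called lower was WAKL1, not WAK5. Members called higher with 2-AA than with flg22 were 1 without the organelle-rich libraries and 1 against 1.5-fold.

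With the replicate number as a block, members called lower with 2-AA against mock were 0, and it changed no other call of a member. Same-numbered libraries correlated at -0.134 to 0.188 in their deviations from group means and different-numbered ones at -0.149 to 0.220, so the numbers do not pair the libraries. Depth limits WAK3, WAK5, WAKL1 and WAKL10, which held at most 169 counts over any group.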
